A study of Apis mellifera with 6 samples.

Results

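The cytochrome P450 genes described here were the rows of the 3 deposited tables whose gene symbol starts with CYP, ignoring case, and there were 4 of them among 10041 listed genes. CYP6AQ1 and Cyp6as5 belong to family CYP6 of the CYP3 clan, Cyp4g11 to family CYP4 of the CYP4 clan, and Cyp314a1 to the mitochondrial clan. No listed symbol named a CYP9 gene, though such genes may be listed under LOC symbols. Midguts came from adult honey bees (Apis mellifera) of mixed North American stock, caught at the landing board. For 24 h the bees fed on sucrose solution with 0.5% DMSO, alone in the control group or with 200 µM halofuginone in the treated group. Halofuginone blocks the prolyl-tRNA synthetase and was fed to induce the integrated stress response. By the study's methods each library was made from 1 midgut and all bees of an experiment came from 1 colony. The library titles name no colony, so the spread is between bees, and of 1 colony only if these libraries were 1 experiment. There were 3 libraries per group, labelled Control 1 to 3 and Halofuginone 2 to 4.

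P450 enzymes are haem proteins that insert an oxygen atom into small lipophilic molecules. In insects the CYP6 and CYP9 families act on plant compounds and insecticides, the CYP4G enzymes make the hydrocarbons of the cuticle, and mitochondrial P450 enzymes carry out late steps of ecdysteroid hormone synthesis. The midgut is the first tissue to meet what a bee has eaten and is a main site of this xenobiotic metabolism. The comparison between the groups asks whether transcripts of these enzymes change in the midgut when bees eat halofuginone.

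None of the 4 P450 genes changed detectably. All 4 estimates lay above 0, where 49.0% of all listed genes did so. No P450 gene passed the test, and the groups overlapped for each of the 4. Values are normalised read counts, which are reads per gene divided by 1 size factor per library, and log2 fold changes compare halofuginone with control on the log2(value + 1) scale in limma. Calls needed an adjusted p (Benjamini-Hochberg) under 0.05 and a change of more than 1 on the log2 scale in either direction. Of the 4 genes 0 were called, beside 2.37% of all listed genes. DESeq2 and edgeR also called 0 of the 4. The number with an unadjusted p below 0.05 was 0 in each of limma, DESeq2 and edgeR, whereas 23.7% of all listed genes had such a p in limma. In limma the count of P450 genes became 1 without Control 1 and 1 without Halofuginone 4, Cyp6as5 in both. For replicates 2 and 3 alone it was 1 with no block (Cyp6as5) and 2 with a replicate block (Cyp6as5 and CYP6AQ1). Among all listed genes the number was 2624 without Control 1 and 1998 without Halofuginone 4. For replicates 2 and 3 it was 2389 with no block and 2202 with the block, beside 2383 with all libraries. The 3 libraries of one group lay wholly above those of the other for 0 of the 4 genes and for 30.6% of all listed genes. The median log2 fold change was 0.26 over the 4 genes and −0.01 over all listed genes.

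**Figure D1:**
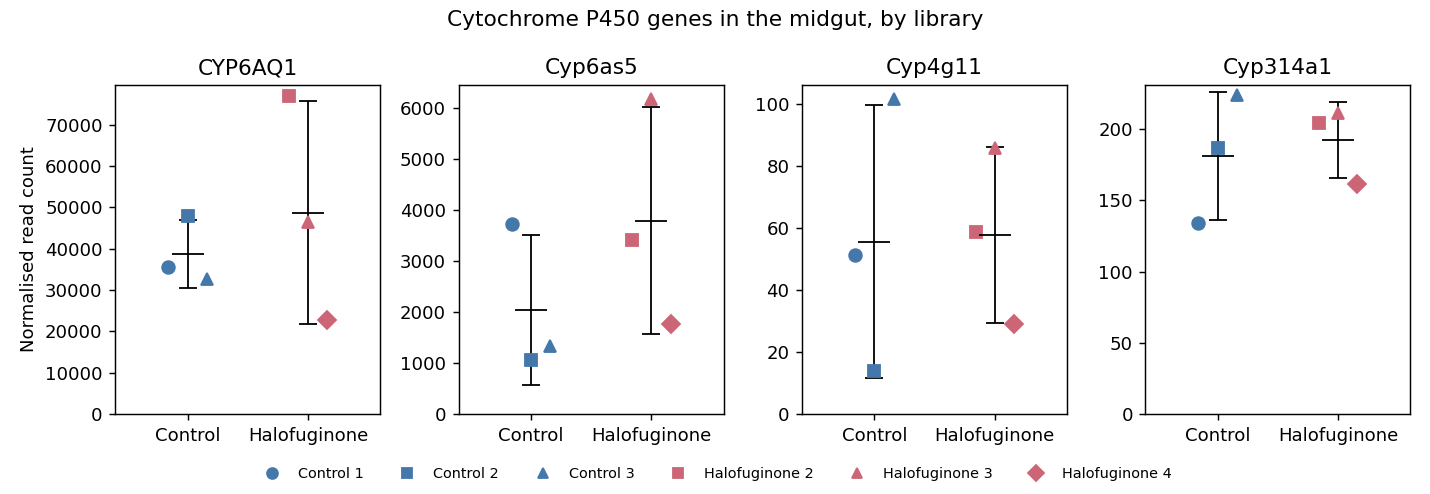
Normalised read counts (vertical axes, each from 0) of the 4 cytochrome P450 genes in the 3 control and 3 halofuginone libraries; each symbol is 1 library, and black bars are the group mean ± SD (n = 3). The groups overlap for every gene, and Halofuginone 4 is the lowest treated library in all 4 panels.

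CYP6AQ1 encodes a CYP6 enzyme that can metabolise insecticides in the honey bee. Its normalised count was 35515 in Control 1, 48034 in Control 2 and 32637 in Control 3. After halofuginone it was 76885 in Halofuginone 2, 46565 in Halofuginone 3 and 22834 in Halofuginone 4. The treated libraries thus held both the highest and the lowest value of the series, with Halofuginone 2 above every control and Halofuginone 4 below every control. The means were 38729 ± 8186 in controls and 48761 ± 27092 after halofuginone (SD, n = 3). The log2 fold change was 0.18 ± 0.43 (SE), with a 95% interval from −0.82 to 1.19 and a limma adjusted p of 0.842. The upper bound corresponds to a 2.28-fold rise and the lower bound to 0.566 of the control level, and changes of either direction lay inside the interval. The direction rested on 1 bee, since without Halofuginone 2 the log2 fold change was −0.23. For replicates 2 and 3 alone the log2 fold change was 0.60. Its limma adjusted p was then 0.188 with a replicate block and 0.350 with no block.

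The reads behind CYP6AQ1 were many, from 21168 in Halofuginone 4 to 78773 in Halofuginone 2. These were 0.0854% and 0.327% of the reads of those libraries, with Wilson 95% intervals of 0.0843% to 0.0866% and 0.325% to 0.329%. Such intervals cover counting error only and leave out the differences between bees. The coefficient of variation was 21.1% in controls and 55.6% after halofuginone, beside medians over all listed genes of 15.7% and 15.8%. Whether the treated bees were more variable was not tested.

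Cyp6as5 belongs to the CYP6AS subfamily, which is expanded in bees and of which some members metabolise flavonols of pollen and honey. It had 3729 normalised counts in Control 1, 1052 in Control 2 and 1340 in Control 3. After halofuginone the values were 3417 in Halofuginone 2, 6174 in Halofuginone 3 and 1771 in Halofuginone 4. All 3 treated libraries were above Control 2 and Control 3, while Control 1 was above Halofuginone 2 and Halofuginone 4. The means were 2040 ± 1469 and 3788 ± 2225 (SD, n = 3).

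The estimate for Cyp6as5 was the highest of the 4, at a log2 fold change of 0.94 ± 0.58 (SE), or 1.92-fold. Its 95% interval ran from −0.42 to 2.31, and the limma adjusted p was 0.373. Leaving out Control 1 gave 1.49, and leaving out Halofuginone 4 gave 1.40, with adjusted p values of 0.134 and 0.236. Without Control 2 it was 0.58 and without Halofuginone 3 it was 0.50. The sign stayed positive in every alternative run, the lowest adjusted p was 0.0536 and the highest 0.664, so no call was made in any of them.

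Both CYP6 genes were also compared with each other inside each library, where scaling cancels. The ratio of CYP6AQ1 to Cyp6as5 normalised counts was 9.52 in Control 1, 45.7 in Control 2 and 24.4 in Control 3. It was 22.5 in Halofuginone 2, 7.54 in Halofuginone 3 and 12.9 in Halofuginone 4. The ratio ranged widely in both groups, and Control 1, Halofuginone 2 and Halofuginone 4 lay inside the range of the other group. Transcript lengths were not used here, so these ratios compare libraries and do not rank the levels of the 2 genes. Summed over these 2 genes, the counts were 40769 ± 7669 in controls and 52549 ± 27849 after halofuginone (SD, n = 3). CYP6AQ1 held between 88.3% and 97.9% of this sum in the 6 libraries. The sum leaves out other measured CYP6 genes, which are given below by synonym, so it is not a total for the family.

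**Figure D2:**
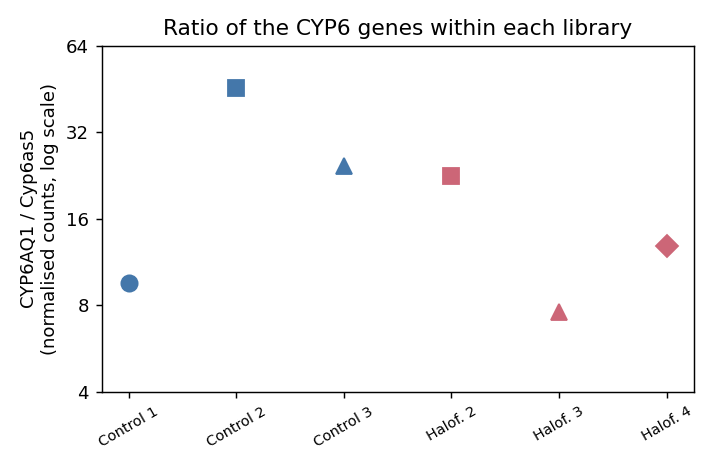
Ratio of the normalised counts of CYP6AQ1 and Cyp6as5 (vertical axis, log scale) in each library, blue for control and red for halofuginone, 1 symbol per library. Values run from 7.54 in Halofuginone 3 to 45.7 in Control 2, and the groups overlap.

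Cyp4g11 encodes a CYP4G enzyme, a subfamily known in Drosophila for the last step of cuticular hydrocarbon synthesis in oenocytes. Few reads fell on it in the midgut. The recovered reads were 48 in Control 1, 14 in Control 2 and 99 in Control 3, and 60, 100 and 27 in Halofuginone 2, 3 and 4. As normalised counts, the controls were at 51.1, 13.8 and 102, and the halofuginone libraries at 58.6, 85.8 and 29.1. The controls enclosed all 3 treated values. The exact Poisson 95% intervals, which cover counting error only, were 7.65 to 23.5 reads for Control 2 and 80.5 to 121 reads for Control 3.

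The means of Cyp4g11 were 55.5 ± 44.1 in controls and 57.8 ± 28.4 after halofuginone (SD, n = 3). The log2 fold change was 0.33 ± 0.73 (SE), with a 95% interval from −1.40 to 2.05 and a limma adjusted p of 0.837. It became −0.44 without Control 2 and −0.02 without Halofuginone 3. The interval thus held changes beyond the 2-fold threshold in both directions.

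Cyp314a1 is the honey bee counterpart of shade, the Drosophila enzyme that hydroxylates ecdysone to its active form in peripheral tissues such as the gut. It had 134 normalised counts in Control 1, 186 in Control 2 and 224 in Control 3. The treated libraries held 204, 211 and 162 in Halofuginone 2, 3 and 4, all within the range of the controls. The means were 181 ± 45.0 and 192 ± 26.7 (SD, n = 3). The log2 fold change was 0.10 ± 0.23 (SE) and the limma adjusted p 0.833, and the estimate became −0.10 without Control 1. Its 95% interval, −0.44 to 0.65, was the narrowest of the 4 and ended at a 1.57-fold rise, so a change as large as the 2-fold threshold lay outside it in either direction.

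The 4 genes differed in how steady they were between bees. The SD of log2 values within groups was 0.30 for Cyp314a1, larger than in 58.9% of all listed genes. It was 0.66 for CYP6AQ1, 0.94 for Cyp6as5 and 1.14 for Cyp4g11, larger than in 88.1%, 94.7% and 96.8% of listed genes. Halofuginone 4 was the lowest treated library for all 4 genes. Leaving it out therefore had to raise all 4 estimates, to 0.65 for CYP6AQ1, 1.40 for Cyp6as5, 0.74 for Cyp4g11 and 0.22 for Cyp314a1. The controls showed no such shared order, since Control 3 was the lowest control for CYP6AQ1, Control 2 for Cyp6as5 and Cyp4g11, and Control 1 for Cyp314a1. The log2 fold changes of the genes were compared in 6 pairs by an exact two-sided permutation test of their difference within each library. The raw p ranged from 0.3 to 1, every Benjamini-Hochberg value was 1, and the smallest p that 3 against 3 libraries allow is 0.1, so no difference could have passed.

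**Figure D3:**
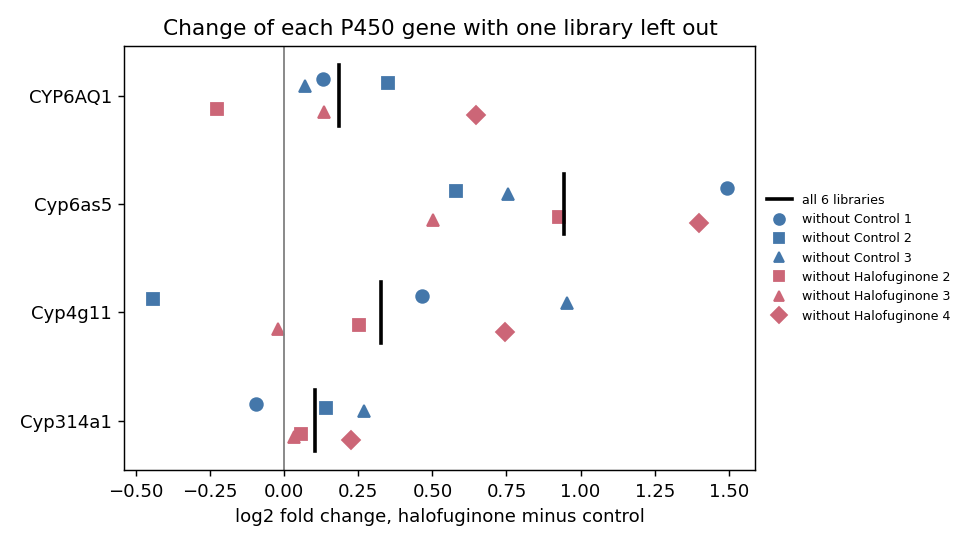
Log2 fold change of each P450 gene (horizontal axis) with all 6 libraries (black line) and with 1 library left out (symbols, blue where a control and red where a halofuginone library was removed). Cyp6as5 stays above 0, between 0.50 and 1.49, while CYP6AQ1, Cyp4g11 and Cyp314a1 cross 0.

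More P450 genes are known in the honey bee, and the gene table used for names gave CYP synonyms for 3 genes without a CYP symbol. LOC724946 (CYP6AS11) and LOC551028 (CYP6AS13), of the same subfamily as Cyp6as5, were measured, and LOC551179 (CYP15A1) was not analysed here. They were looked up after the rule had been applied and are no members. LOC724946 had 2040, 2717 and 4867 normalised counts in Control 1, 2 and 3, and 5492, 1179 and 3352 in Halofuginone 2, 3 and 4. Its highest and lowest values were both in treated bees, and Halofuginone 3, the highest library for Cyp6as5, was its lowest. LOC551028 had 7649, 4031 and 4096 in the controls and 6466, 3677 and 5211 after halofuginone, and the groups again overlapped. For both genes the lowest treated library was Halofuginone 3 and not Halofuginone 4, unlike the P450 members. The log2 fold changes were −0.10 ± 0.57 and −0.01 ± 0.30 (SE), with adjusted p values of 0.935 and 0.991 in limma, and both signs turned under several alternatives. The handling of reads that match several CYP6AS genes was not stated in the methods read here, so sharing of reads between Cyp6as5 and its relatives is possible.

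Other genes of detoxification and hormone metabolism were taken from lists of symbols chosen with earlier results of these data known. In the list of detoxification and redox genes, 4 of 17 names matched a listed gene, and 1 of the 4 passed the adjusted p, in the direction of a rise, beside 4.63% of all listed genes that passed higher and 2.25% lower. This gene was LOC725081, which the study names as cap'n'collar C (CncC), the insect counterpart of the oxidative stress regulator NRF2, whose targets in Drosophila include P450 genes. Its normalised counts were 5051, 5168 and 5598 in Control 1, 2 and 3, and 7857, 8743 and 8058 in Halofuginone 2, 3 and 4. Every treated library lay above every control, and the groups lay apart in this way, in either direction, for 30.6% of all listed genes. Means were 5272 ± 288 and 8219 ± 464 (SD, n = 3), and the estimate of 0.64 ± 0.11 (SE) had an adjusted p of 0.0232 in limma and lay below the fold threshold for a call. This p rose above 0.05 without Control 2 (0.107), Control 3 (0.0976), Halofuginone 2 (0.0625) or Halofuginone 4 (0.0694), without the variance trend (0.0561), with a block by deposited table (0.123) and for replicates 2 and 3 with a replicate block (0.108) or no block (0.0723), and its lowest value in any alternative was 6.88e-06.

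The remaining 3 did not pass, and the median log2 fold change of the 4 matched genes was 0.07. For LOC411679, which the study names as Keap1, the inhibitor of CncC, the estimate was −0.19 ± 0.19 (SE) with an adjusted p of 0.614. The glutathione S-transferase genes GstD1 and GstS1, whose enzymes conjugate reactive compounds to glutathione, had 0.33 ± 0.24 and −0.30 ± 0.30 (SE), with adjusted p values of 0.461 and 0.598. Whether CncC and the P450 genes differed in their response was not tested.

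Of the juvenile hormone list 3 of 10 names matched, 0 passed the adjusted p in limma, and their median log2 fold change was 0.82. Of all listed genes 4.63% passed it higher and 2.25% lower. Jhe, the esterase that breaks down juvenile hormone, averaged 3287 ± 609 normalised counts in controls and 2139 ± 254 in treated bees (SD, n = 3), with every treated library below every control. Its log2 fold change, −0.61 ± 0.16 (SE), had an adjusted p of 0.0723 in limma, of 0.0491 in limma without Control 1 and of 0.0158 in DESeq2. In every other alternative the adjusted p for Jhe was above 0.05, up to 0.198 in limma without Control 3. JHBP-1, named for binding of the hormone, was at 249 ± 73.9 and 427 ± 18.2 (SD, n = 3), with every treated library above every control. Its estimate of 0.82 ± 0.24 (SE) had an adjusted p of 0.0895 in limma and 0.0290 in DESeq2. In every other alternative the adjusted p for JHBP-1 was above 0.05, up to 0.199 in limma without Halofuginone 4. Without Control 3 the estimate for JHBP-1 was 0.55. The groups lay apart as for Jhe and JHBP-1, in either direction, for 30.6% of all listed genes. LOC724216, with the synonym Jhamt of a methyltransferase of juvenile hormone synthesis, had 1.14 ± 0.49 (SE) with an adjusted p of 0.214, but it rested on single controls, with 1.70 and an adjusted p of 0.0382 without Control 1 and 0.64 and 0.427 without Control 2.

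Of the ecdysteroid synthesis and inactivation list, Cyp314a1 was the only 1 of 7 names that matched. The list of ecdysteroid response genes and related nuclear receptors matched 6 of 15 names, 0 passed the adjusted p, and their median log2 fold change was 0.13. Of all listed genes 4.63% passed it higher and 2.25% lower. The ecdysone receptor gene Ecr had 7964 ± 1056 normalised counts in controls and 8042 ± 504 in treated bees (SD, n = 3). Its estimate of 0.02 ± 0.14 (SE) had an adjusted p of 0.946, and its sign turned with the edgeR fit (−0.0045). For its partner Usp the log2 fold change was −0.14, and for the ecdysone-response genes E75, E74 and Br-c it was 0.24, 0.23 and −0.01. Err, the oestrogen-related receptor, had 0.37 ± 0.16 (SE) with an adjusted p of 0.227 and with every treated library above every control, but it was 0.22 without Control 1 and 0.14 for replicates 2 and 3 alone. Of the P450 enzymes known to metabolise plant compounds or pesticides only CYP6AQ1 (1 of 9 names) matched, and of the P450 enzymes of cuticle and hydrocarbons only Cyp4g11 (1 of 3). Names were matched by symbol or synonym only, so unmatched genes may be among the listed genes under LOC symbols.

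**Figure D4:**
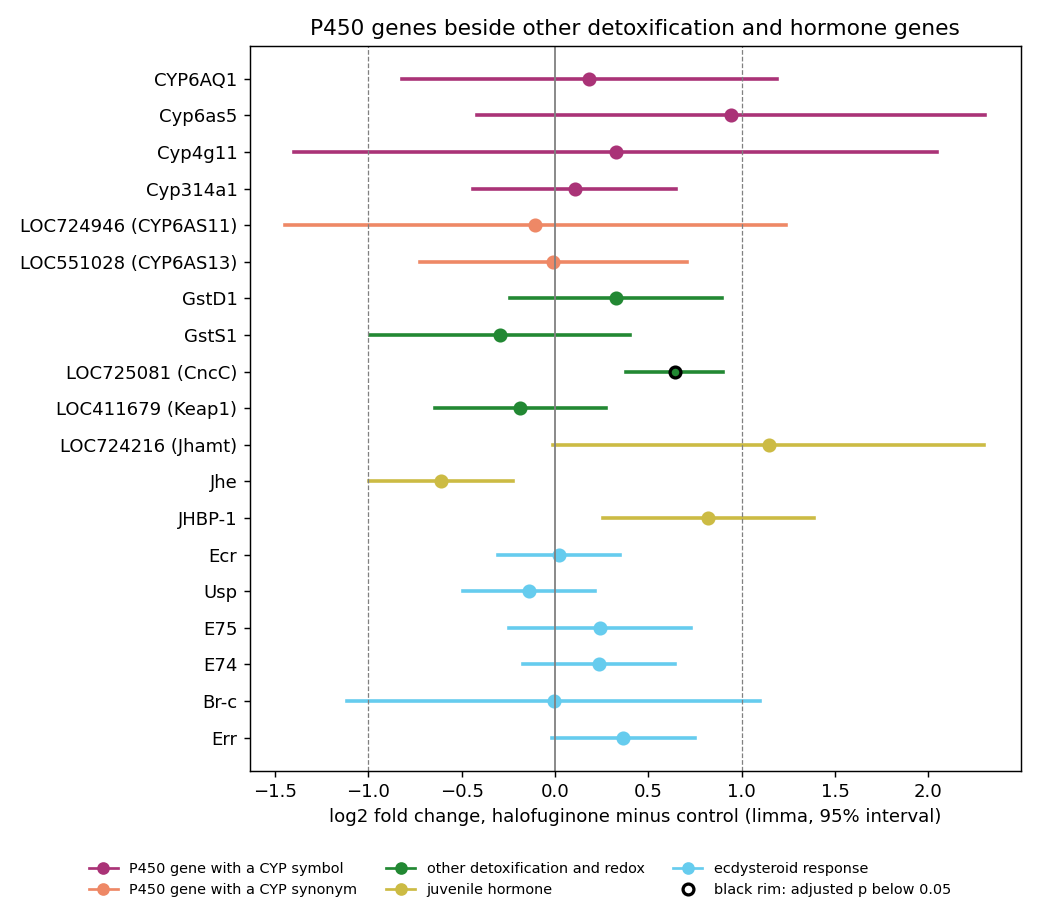
Log2 fold change (horizontal axis) with its 95% interval from limma for the 4 P450 genes, the 2 CYP6AS genes known by synonym, and the matched genes of the detoxification, juvenile hormone and ecdysteroid response lists; dashed lines mark the threshold of 1 in either direction. LOC725081 (CncC), at 0.64, is the one point with an adjusted p below 0.05, and the intervals of all 4 P450 genes include 0.

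Recovered reads totalled 23305398 to 26278866 per library, and no pair of libraries of a group was as alike as sampling noise. The midgut identity was checked with digestive enzymes, of which 2 of 4 names matched. Both α-glucosidase genes were abundant in all 6 libraries, with means in controls and treated bees of 708487 ± 69995 and 420623 ± 39300 for AGLU2 (synonym Hbg1) and of 709168 ± 202164 and 630971 ± 42083 for Hbg2 (SD, n = 3). AGLU2 was lower in every treated library, at a log2 fold change of −0.75 ± 0.41 (SE). The groups lay apart, in either direction, for 30.6% of all listed genes. For AGLU2 the adjusted p was 0.322 in limma, 0.0568 in limma without the variance trend, 0.0840 in edgeR and 2.23e-05 in DESeq2. Every alternative but DESeq2 gave it a value above 0.05, up to 0.557 in limma without Control 2. Of the fat body markers 5 of 6 names matched, all with estimates below 0 and 0 past the adjusted p. Among all listed genes 49.0% of estimates lay above 0, and 4.63% of genes passed the adjusted p higher and 2.25% lower. Summed fat body markers ranged from 735 to 973 normalised counts in controls and from 453 to 721 after halofuginone. Muscle markers (7 of 12) ranged from 5340 to 8916 and from 4750 to 8532. Of these 7 estimates 4 lay above 0 and 3 below, and 0 passed the adjusted p. TpnCI (−0.43) and TpnCIIIb (−1.36, limma adjusted p = 0.0590) were lower in every treated library, and the groups overlapped for the other muscle markers. Hypopharyngeal gland markers (2 of 7) ranged from 2030 to 3242 and from 1471 to 1812, with Hbg3 called lower (log2 fold change −1.57, limma adjusted p = 0.00856, 0.0528 without Control 3, 0.0599 with a replicate block and 0.0568 with a block by table). The other gland marker, Mrjp7, had a log2 fold change of −0.12 (limma adjusted p = 0.830). Its groups overlapped, at 786 to 1408 in controls and 874 to 1355 after halofuginone. The 1 of 4 haemocyte markers that matched ranged from 63.1 to 75.9 and from 56.1 to 71.3. None of these markers was at 0 in any library, fat body and gland sums did not overlap between the groups, and their part in the P450 values was not tested. In whole midguts, fewer cells of a type and less RNA per cell cannot be told apart.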

How the data were processed

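Poly(A) RNA of 6 midguts was sequenced with paired reads of 150 bp on an Illumina HiSeq. The labels name Trimmomatic 0.36, STAR, Subread and DESeq2, and the study's methods name assembly Amel 4.5, with no strand setting stated there. The authors deposited a normalised signal, read counts divided by 1 size factor per library; 0 columns were unused. Divided by the value of 1 read, 100% of the values came out whole within 0.01 reads, and DESeq2 returned the same size factors (0.927 to 1.16) from the recovered reads. The lowest total of a listed gene was 61 reads, so genes under it are not analysed here.

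All 10041 genes entered limma 3.58.1 (R 4.3.3) on log2(value + 1) with a variance trend and group as the only term. DESeq2 1.42.0 and edgeR 4.0.16 were run on recovered reads as alternatives. Other alternatives were scaling, a filter, pseudocounts of 0.5 and 4, no trend, blocks, and leaving out each library. The test across genes was first checked on simulated data. Members were taken by symbol and all were named. Members and lists were chosen with earlier results of these data known. Names came from a table of assembly Amel_HAv3.1, in which 9225 symbols were found, and no coordinates are printed. The planned levels per coding length were not made, since no coding length or protein sequence was used here. The pairwise test of the 4 genes was added after the data had been seen. The rest ran in Python 3.11.15 with scipy 1.17.1 for exact tests and matplotlib 3.10.9 for plots. The p-values of the fits set the difference between groups against the spread between bees. If all these bees came from 1 colony, as the study's methods state for an experiment, differences between colonies are left out.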

Additional observations from a re-analysis of the deposited data

How the results depend on the processing

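The number of P450 genes called was 0 in all 17 alternatives. The number of all genes called was 238, against 385 with DESeq2, 7 with a block by deposited table, 3 with a replicate block on replicates 2 and 3 of both groups (203 for those libraries with no replicate block), and 47 to 277 when 1 library was left out (63 without Control 2, 47 without Control 3, 126 without Halofuginone 4). Same-numbered libraries did not deviate together (correlations of deviations 0.07 and −0.03), so the numbers were not taken to pair the bees. The block by deposited table joined Control 1 with Halofuginone 2, Control 2 with Halofuginone 3 and Control 3 with Halofuginone 4. Their correlations of deviations were −0.18, −0.15 and −0.11. With the replicate block Cyp6as5 had a log2 fold change of 1.95 and an adjusted p of 0.0599, and 0.0536 with no block. Among scalings, filter, pseudocounts, tests and blocks no P450 member changed sign. Over libraries left out the ranges were −0.23 to 0.65 for CYP6AQ1, 0.50 to 1.49 for Cyp6as5, −0.44 to 0.95 for Cyp4g11 and −0.10 to 0.27 for Cyp314a1. For the log2 ratio of summed CYP6AQ1 and Cyp6as5 counts the range was −0.16 to 0.69 (0.22 with all 6, 0.31 with library totals). Signs of genes near 0 also turned: LOC551028 (0.0814 with library totals, 0.26 for replicates 2 and 3 with and without the block), Br-c (0.0829 with library totals), LOC724946 (0.0585 with DESeq2, 0.0361 with edgeR) and Ecr (−0.0045 with edgeR, −0.0923 for replicates 2 and 3 with and without the block). With 1 library left out their ranges were −0.20 to 0.29, −0.58 to 0.28, −0.59 to 0.52 and −0.0940 to 0.0850, with −0.35 to 0.0205 for LOC411679 and −0.30 to 0.0852 for Hbg2. The cause was not tested. Cyp4g11 had the fewest reads of the P450 genes, 14 to 100 per library.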

Other observations

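The genes on either side of the P450 genes were also examined. In the gene order of Amel_HAv3.1, which is not the build used for counting, the 3 nearest listed genes on each side of each P450 gene gave 24 flanking genes. None overlapped a P450 gene in that table. Their log2 fold changes ran from −0.50 to 0.64, and 0 of the 24 passed the adjusted p in limma. Of all listed genes 4.63% passed it higher and 2.25% lower. Around Cyp6as5, whose own estimate was 0.94, the 6 flanking genes lay between −0.46 and 0.64.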
